A study of Mus musculus with 8 samples.

Results

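The eukaryotic translation initiation factors and their regulators were taken as every gene in the deposited count table whose symbol starts with Eif, with pseudogene entries (symbols containing -ps) left out. The rule found 56 genes among the 47729 in the table, and used no measured value. Of these, 54 passed the filter on low counts and were tested. The other members, Eif4e1b, a homologue of the cap-binding protein eIF4E, and Eif2c5, had 0 counts in all 8 libraries, which allows up to 0.135 CPM (3 counts) in the shallowest library. Levels are given in CPM, the count scaled to a fixed library total. Where 4 values stand for a group, they are replicates 1 to 4 in order.

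RNA was sequenced from leukaemic bone marrow cells of 8 mice, 4 per group. In both groups C57BL/6 donor marrow, taken after 5-fluorouracil, carried a BCR-ABL1 retrovirus with red fluorescent protein and a pLKO.1 lentivirus with Venus, and was transplanted into recipients given 900 cGy. The groups differed in the shRNA, which was scrambled in the control mice and targeted Fubp1 in the knockdown mice. BCR-ABL1 is the fusion kinase of chronic myeloid leukaemia, and FUBP1 binds single-stranded DNA and RNA and is known for its link to Myc. The cells sorted were live, negative for lineage markers and positive for both reporters. The design asked what lowering Fubp1 does to the RNA of these cells.

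Initiation is the step at which a ribosome is loaded onto an mRNA and set at its start codon. The GTP-binding factor eIF2 brings the initiator tRNA to the small ribosomal subunit, eIF2B recharges eIF2 with GTP, and kinases that phosphorylate the alpha subunit of eIF2 slow that exchange under stress. The multi-subunit scaffold eIF3 binds the small subunit. The cap complex, made of eIF4E, the scaffold eIF4G and the helicase eIF4A, recruits the mRNA, and 4E-binding proteins block it when the kinase mTOR is inactive. Blood cells depend on these steps, and the kinase encoded by Eif2ak1 is known as the haem sensor of red cell precursors.

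The libraries held 22465303 to 44761356 counts, of which the Eif genes took 1.77 to 1.98%. Fubp1, the target, stood at 296, 284, 291 and 396 CPM in scrambled mice, against 281, 228, 220 and 239 CPM with the knockdown. All knockdown values lay below all scrambled values, and the change missed the threshold (log2 fold change -0.39, SE 0.12, adjusted p = 0.0604 by edgeR's quasi-likelihood test). Fubp1 passed in 2 of 16 alternative fits, by DESeq2 (adjusted p = 0.0145) and by edgeR with no filter on low counts (0.0365). It passed in 0 of the 8 edgeR fits that left out 1 library, where the adjusted p was 0.0575 to 0.136. Of 11 erythroid markers 5 fell (Klf1, Gata1, Epor, Car2 and Ermap) and 3 rose (Alas2, Hbb-bs and Hbb-bt), with sums of 8797 to 9664 CPM in scrambled mice and 6660 to 9790 CPM with the knockdown. The common leukocyte gene Ptprc was at 5.49 to 15.1 CPM in scrambled mice, against 36.5, 21.1, 4.28 and 74.1 CPM with the knockdown (adjusted p = 0.131). Of the 5 haematopoietic identity markers to which it belongs, 1, Spi1, was called higher by edgeR (adjusted p = 0.0490). Runx1 and Cd34 were fitted higher without passing. Kit was fitted lower without passing (log2 fold change -0.86, edgeR adjusted p = 0.158). Macrophage and monocyte markers summed to 4.22 to 11.6 CPM in scrambled mice, against 87.8, 21.4, 9.20 and 123 CPM with the knockdown. In every library 5 of 6 T cell and 5 of 6 B cell markers stayed under 1 CPM. Early granulocyte markers differed between mice. Their sum was 36.5, 166, 337 and 85.1 CPM in scrambled mice, against 1988, 959, 87.3 and 3658 CPM with the knockdown, so knockdown replicate 3 lay in the scrambled range. None of the 8 tested genes of that list passed by edgeR. Megakaryocyte markers summed to 68.4 to 86.4 CPM in scrambled mice and 132 to 213 CPM with the knockdown, with 2 of 5 tested genes called higher. In knockdown replicate 1 the collagen gene Col1a1 was at 332 CPM, against at most 6.86 CPM elsewhere.

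Most Eif genes differed little between the groups. By edgeR's quasi-likelihood test with Benjamini-Hochberg adjustment across the 13462 genes tested, 6 Eif genes fell, 1 rose and 47 of 54 did not pass. The 6 were Eif3a, Eif3f, Eif3l, Eif3m, Eif4b and Eif2a, and the gene that rose was Eif5a2. The 6 are 11.1% of the tested members, beside 7.29% of all tested genes called lower, and the 1 is 1.85%, beside 8.02% of all tested genes called higher. Fitted changes lay below 0 for 40 of the 54 (74.1%), against 49.8% of all tested genes, with a median log2 fold change of -0.10 against 0.00 over all genes. Of the 47 members with a mean of at least 50 CPM, 46 had a fitted change under 0.3 log2 units in either direction. Their standard errors were small, with a median of 0.07 over the 54 members.

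**Figure D1:**
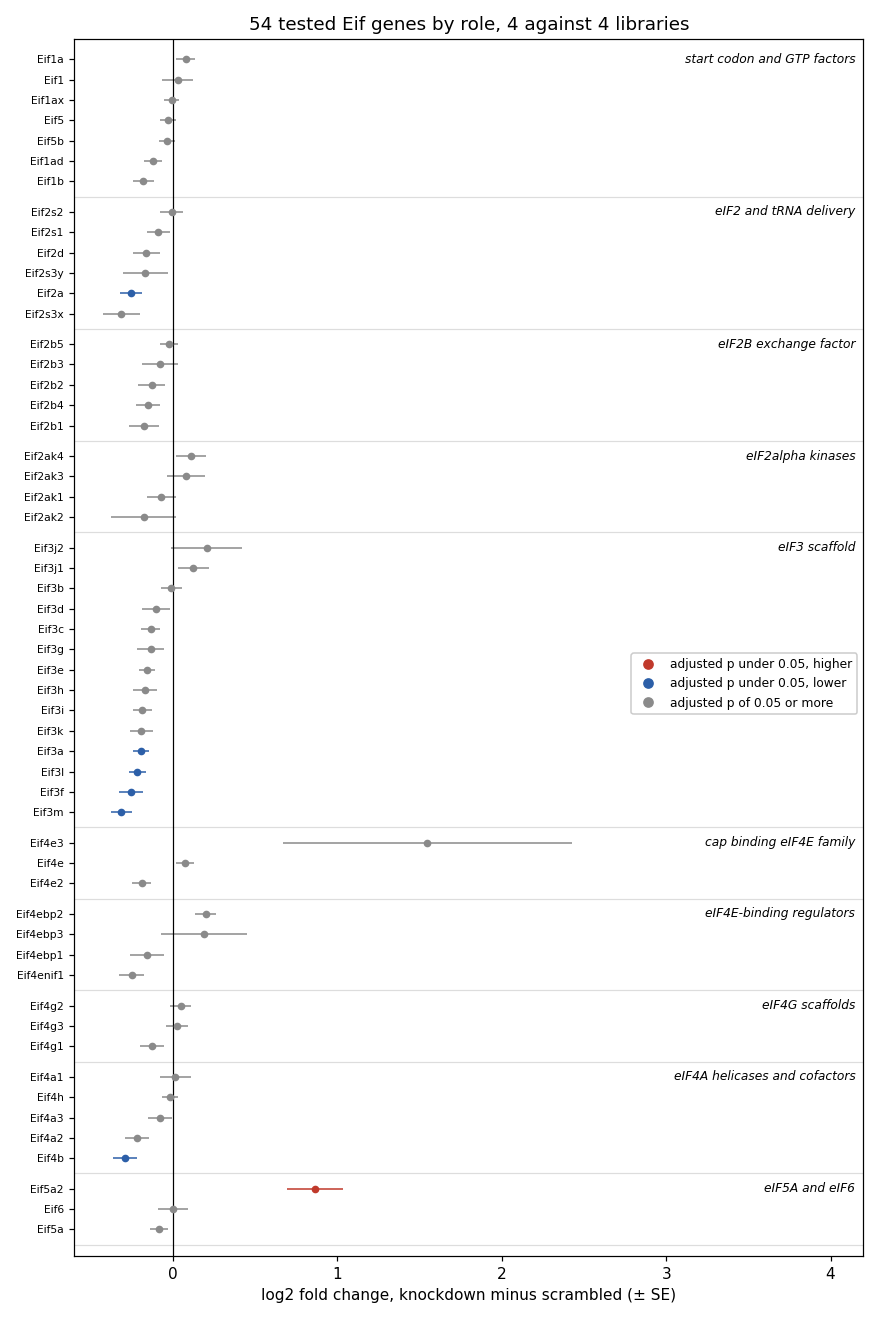
Log2 fold change (knockdown minus scrambled) of the 54 tested Eif genes, with bars of ± SE from the fit, grouped by role. Blue points (6) and the red point (1) passed an adjusted p of 0.05, and 40 of the 54 points lie left of 0.

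The number called depended on single mice. It was 0 lower without scrambled replicate 2 or 3, where 15 and 17 members were lower at an unadjusted p under 0.05. Without knockdown replicate 3 it was 12 lower. Over all tested genes, 1.81, 2.3 and 10.6% were called lower in these fits at an adjusted p under 0.05. The share of all tested genes at an unadjusted p under 0.05 was not counted. Counts at an unadjusted p, here and below, thus have no background share beside them. The number of members called lower was 13 by DESeq2 and 0 by edgeR with the early granulocyte level as a covariate. With that covariate 7 were lower at an unadjusted p under 0.05 and the median was -0.02. Over all tested genes, 10% were called lower by DESeq2 and 1.49% in the covariate fit. The level used as covariate was -2.73, -1.23, 0.130 and -1.80 in scrambled mice, against 2.26, 1.72, -1.86 and 3.51 with the knockdown. It followed the groups except in knockdown replicate 3, so that fit cannot fully separate the early granulocyte level from the knockdown. What part the early granulocyte cells had in these results was not tested. In bulk RNA, fewer cells of a type and less RNA per cell cannot be told apart.

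The eIF3 scaffold held most of the genes that fell. Of its 14 tested genes 4 fell, 0 rose and 10 did not pass, and the median change was -0.17 in log2 units. Of all tested genes 7.29% were called lower and 8.02% higher. The subunits that form the PCI/MPN core of the complex, named for the domains they carry, are a, c, e, f, h, k, l and m. This division of eIF3 was made after the values were seen, and is given as a description. All 8 core genes were fitted below 0, with knockdown levels of 80.4 to 91.0% of the scrambled level, and 4 of them passed the test. The remaining 6 genes, Eif3b, Eif3d, Eif3g, Eif3i and the copies Eif3j1 and Eif3j2, had a median of -0.06 and 0 calls by edgeR, with 1 lower at an unadjusted p under 0.05. With the Eif3j1 and Eif3j2 copies left out, the other 4 were all fitted below 0. Their median was -0.12, with knockdown levels of 87.9 to 99.4% of the scrambled level. DESeq2 called 6 of the 14 lower, 5 of them in the core. The difference between the core and the other genes was not tested.

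Eif3m, a core subunit (chromosome 2 from 104999656 to 105017080 on the minus strand, GRCm38), had the lowest fitted change of the 6 genes that fell. It measured 199, 209, 206 and 197 CPM in scrambled mice, against 147, 168, 179 and 160 CPM with the knockdown. Every knockdown library was below every scrambled one. The log2 fold change was -0.31 (SE 0.07, adjusted p = 0.0189). Its exons share 82 bases with those of Ccdc73 on the other strand, a gene with 608 counts in all 8 libraries together, and whether the counting used strand is not stated. The call was lost without scrambled replicate 2 (adjusted p = 0.0632) or 3 (0.0552).

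Eif3a, the largest subunit, which bridges the core and the rest of the complex, also fell. It measured 1331, 1284, 1301 and 1380 CPM in scrambled mice, against 1120, 1172, 1200 and 1131 CPM with the knockdown. The groups did not overlap, and Eif3a changed by -0.20 in log2 units (SE 0.05, adjusted p = 0.0299). Eif3l, a core subunit, measured 499, 493, 482 and 493 CPM in scrambled mice and 413, 426, 457 and 397 CPM with the knockdown. Again the groups did not overlap (log2 fold change -0.22, SE 0.05, adjusted p = 0.0315). Eif3f, a core subunit with an MPN domain, measured 572, 606, 585 and 545 CPM against 440, 487, 548 and 457 CPM. Here knockdown replicate 3 lay just above the lowest scrambled library, and the call was close to the threshold (log2 fold change -0.26, SE 0.07, adjusted p = 0.0493). The calls of Eif3a and Eif3l were lost without scrambled replicate 1, 2 or 3 or knockdown replicate 1 or 2, where their adjusted p reached 0.06997 and 0.0837. That of Eif3f was lost without any of these or knockdown replicate 4, where it reached 0.122.

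The other 4 core genes, Eif3c, Eif3e, Eif3h and Eif3k, each had an unadjusted p under 0.05 and did not pass the adjustment. Of these Eif3e measured 328, 328, 331 and 324 CPM in scrambled mice and 286, 294, 314 and 280 CPM with the knockdown (log2 fold change -0.16, SE 0.05, adjusted p = 0.0601). The groups did not overlap in Eif3e, whose pseudogene entries in the table held few counts (86 at most over 8 libraries). Knockdown replicate 3, the knockdown library with early granulocyte markers in the scrambled range, was the highest knockdown library for all 8 core genes. It was also the highest for 5 of the 6 other eIF3 genes and for 34 of all 54 tested Eif genes, which was not counted over all tested genes. Of the core genes, it was still below every scrambled library for 4, Eif3a, Eif3e, Eif3l and Eif3m. With the early granulocyte covariate the median of the eIF3 genes was -0.08 and edgeR called 0 of them.

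**Figure D2:**
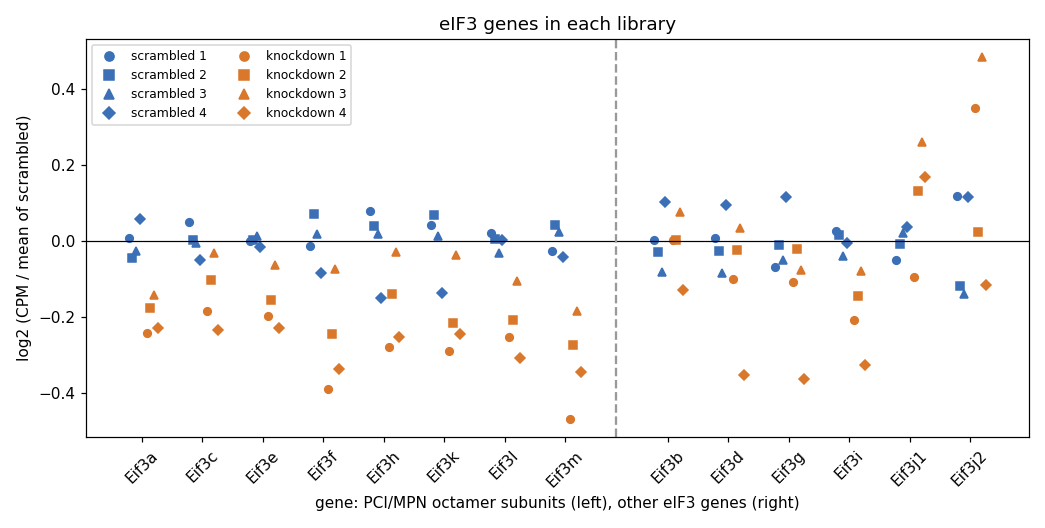
Level of each eIF3 gene in each library, as log2 of CPM over the mean of the 4 scrambled libraries; blue is scrambled, orange is knockdown, and the symbol gives the replicate. All 8 core genes left of the dashed line have knockdown values mostly below 0, with replicate 3 (triangle) the nearest to the scrambled libraries.

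Outside the core, Eif3i (log2 fold change -0.19, adjusted p = 0.0641) was below every scrambled library in all 4 knockdown libraries without passing. Eif3b, the RNA-binding subunit and by CPM per kilobase of exon the highest eIF3 gene, had a group mean of 906 ± 49.4 CPM in scrambled mice and 901 ± 52.6 CPM with the knockdown (SD, n = 4 per group). Its change was -0.01 (SE 0.06). Eif3j1 and Eif3j2 encode the loosely bound subunit and are near-identical copies, so reads could be split between them. They measured 18.02 ± 0.475 and 1.20 ± 0.118 CPM in the scrambled libraries, and neither passed (adjusted p = 0.398 and 0.555).

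Of the helicase group, 1 of 5 fell and 0 rose. Eif4b, which stimulates the helicase eIF4A, measured 1286, 1201, 1230 and 1064 CPM in scrambled mice, against 944, 1005, 1043 and 916 CPM with the knockdown. The groups did not overlap. The change was -0.29 (SE 0.07, adjusted p = 0.0300), and the call was kept only without scrambled replicate 4 or knockdown replicate 3 among the 8 fits that left out 1 library, the adjusted p otherwise reaching 0.0868. Eif4a2, the second cytoplasmic eIF4A gene, lay at 277 to 287 CPM in the knockdown and 294 to 371 CPM in the scrambled libraries, without passing (log2 fold change -0.22, SE 0.07, adjusted p = 0.0737). Its exons overlap those of Rfc4 on the other strand and several small nucleolar RNAs. Eif4a1 measured 200, 191, 196 and 252 CPM in scrambled mice and 205, 218, 227 and 197 CPM with the knockdown, a change of 0.01 (SE 0.10). Apart from scrambled replicate 4, its scrambled values were at or below most knockdown ones. Eif4h, a relative of Eif4b, changed by -0.02 (SE 0.05), and Eif4a3, a helicase of the exon junction complex, by -0.08 (SE 0.07).

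In the eIF2 and tRNA delivery group 1 of 6 fell and 0 rose, and all 6 were fitted below 0. Eif2a, whose product can deliver initiator tRNA without eIF2 and is not a subunit of eIF2, measured 196, 182, 205 and 213 CPM in scrambled mice and 174, 161, 176 and 156 CPM with the knockdown. The groups did not overlap (log2 fold change -0.25, SE 0.07, adjusted p = 0.0356). That call was kept in only 1 of the 8 fits with a library left out, that without knockdown replicate 3, the adjusted p otherwise reaching 0.0795. Its exons share 72 bases with Serp1 on the other strand. Eif2s1 encodes the alpha subunit of eIF2, which the stress kinases phosphorylate. It measured 271, 261, 268 and 306 CPM against 261, 265, 278 and 236 CPM, and the groups overlapped (log2 fold change -0.09, SE 0.07, adjusted p = 0.418). Eif2s2, the beta subunit, changed by -0.01 (SE 0.07).

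The gamma subunit of eIF2 has an X-linked and a Y-linked gene with closely related sequences, so their reads may not have been fully separated. Eif2s3x measured 31.6, 30.9, 30.0 and 38.2 CPM in scrambled mice and 30.4, 26.5, 25.6 and 22.7 CPM with the knockdown, without passing (log2 fold change -0.31, SE 0.11, adjusted p = 0.0873). Eif2s3y measured 91.7, 64.4, 79.1 and 93.4 CPM against 78.7, 58.7, 79.6 and 75.02 CPM (log2 fold change -0.17, SE 0.14, adjusted p = 0.427). Replicate 2 was the lowest library of Eif2s3y in each group. The Y-linked genes Ddx3y, Kdm5d and Uty were at 29.7 CPM or more in every library, and Xist, the transcript of the inactive X, at 0.645 CPM or less, so the sex-linked transcripts were of the male kind in all 8 libraries.

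None of the 5 genes of eIF2B, the exchange factor, passed the edgeR test, and 0 had an unadjusted p under 0.05. All 5 were fitted below 0, with a median of -0.13. Eif2b5, which encodes the catalytic epsilon subunit, measured 211, 206, 204 and 215 CPM in scrambled mice and 202, 211, 218 and 190 CPM with the knockdown (log2 fold change -0.02, SE 0.06, adjusted p = 0.798). Knockdown replicate 4 was the lowest library for it, as it was for 24 of the 54 tested Eif genes. How often that library was the lowest over all tested genes was not counted.

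The 4 genes for eIF2 alpha kinases did not pass either, with fitted changes of -0.18 to 0.11 and 0 at an unadjusted p under 0.05. Eif2ak1, the haem-regulated kinase, measured 227, 224, 226 and 216 CPM in scrambled mice and 205, 185, 254 and 207 CPM with the knockdown (adjusted p = 0.635). The scrambled values were close together and the knockdown values lay on either side of them. Eif2ak2, the double-stranded RNA kinase PKR, measured 122, 113, 143 and 74.2 CPM against 120, 80.5, 100 and 100 CPM (adjusted p = 0.574). Its scrambled libraries spread more widely than its knockdown ones. Eif2ak3, the endoplasmic reticulum kinase PERK, measured 26.8, 25.7, 28.8 and 23.4 CPM against 25.6, 23.7, 28.0 and 33.3 CPM, with overlap (adjusted p = 0.680). Eif2ak4, the amino acid sensor GCN2, measured 58.8, 55.1, 59.0 and 46.0 CPM against 57.5, 63.6, 61.7 and 53.5 CPM (log2 fold change 0.11, SE 0.09, adjusted p = 0.452).

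The core cap complex did not pass. Eif4e, the cap-binding protein, measured 110, 110, 115 and 118 CPM in scrambled mice, against 113, 120, 126 and 118 CPM with the knockdown. The groups overlapped, and the change was 0.07 (SE 0.05, adjusted p = 0.385). Eif4g1, the main scaffold, measured 1823, 1786, 1776 and 2092 CPM against 1756, 1681, 1845 and 1571 CPM (log2 fold change -0.13, SE 0.07, adjusted p = 0.262). Scrambled replicate 4 stood above its group. Eif4g2, which encodes a scaffold that lacks the eIF4E site, stood at 2301 ± 152 in scrambled mice and 2378 ± 127 with the knockdown (SD, n = 4 per group), a change of 0.05 (SE 0.06).

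Among cap-binding relatives and inhibitors, 3 genes came near the threshold without passing. Eif4e2, whose product 4EHP binds the cap and does not promote initiation, measured 150, 152, 157 and 142 CPM in scrambled mice and 132, 132, 141 and 123 CPM with the knockdown. The groups did not overlap (log2 fold change -0.19, SE 0.06, adjusted p = 0.0552). Eif4ebp2, a 4E-binding repressor, was higher in every knockdown library, at 203, 206, 211 and 191 CPM against 186, 169, 164 and 187 CPM (log2 fold change 0.20, SE 0.06, adjusted p = 0.0594). Eif4enif1, the 4E transporter, had 210, 225, 270 and 221 CPM in the knockdown against 264 to 283 CPM in the scrambled libraries (log2 fold change -0.25, SE 0.08, adjusted p = 0.0600). In the authors' deposited table these 3 genes passed, with adjusted p-values of 0.0277, 0.0325 and 0.0286. Eif3e, Eif3i, Eif4a2 and Eif2s3x, which did not pass by edgeR, passed there as well. Their adjusted p-values in the authors' DESeq2 test were 0.0229, 0.0331, 0.0346 and 0.0467. Eif4ebp1, the 4E-binding repressor controlled by mTOR, measured 87.9, 96.9, 96.8 and 76.9 CPM in scrambled mice and 77.7, 90.2, 85.0 and 68.7 CPM with the knockdown, with overlap (adjusted p = 0.328).

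Eif4e3, an atypical cap-binding gene, was the member with the largest fitted change, at 1.55 with an SE of 0.88, and did not pass (adjusted p = 0.257). It measured 0.167, 0.923, 1.25 and 0.405 CPM in scrambled mice and 3.22, 1.16, 0.159 and 3.57 CPM with the knockdown. Knockdown replicates 1 and 4, which held the most early granulocyte marker RNA, were high, and knockdown replicate 3 was the lowest of all 8.

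**Figure D3:**
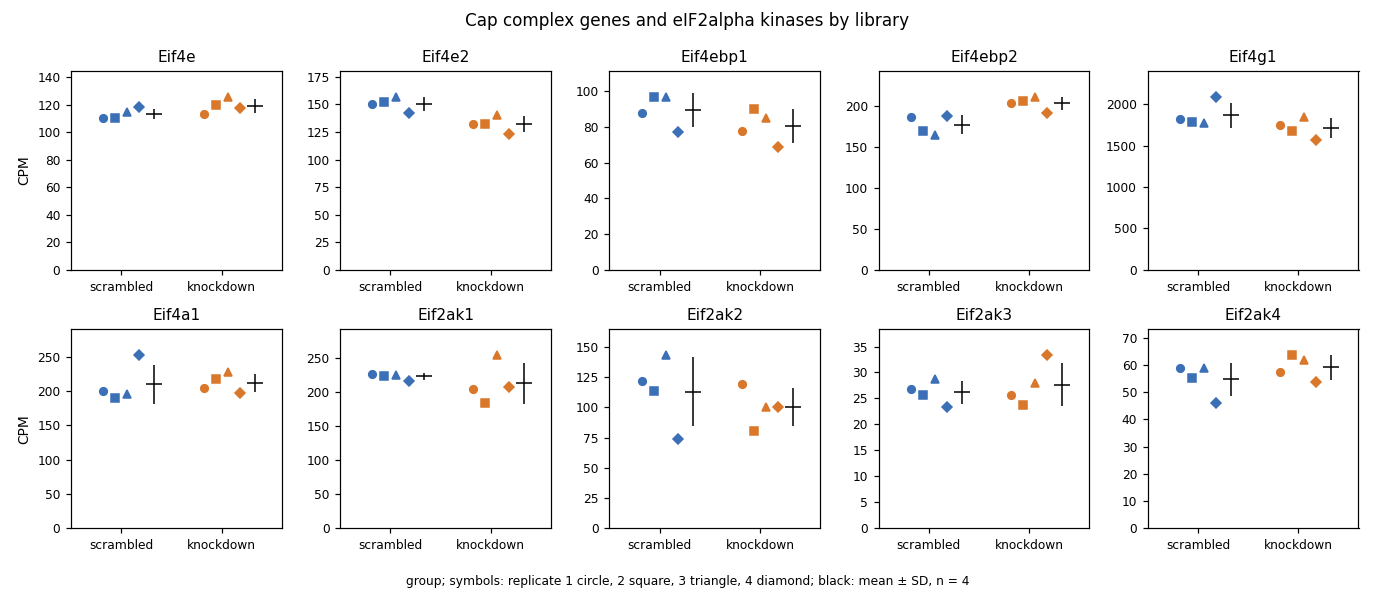
CPM of cap complex genes and eIF2 alpha kinases in each library, with the mean ± SD of 4 libraries per group in black. Of the 10 genes, Eif4e2 and Eif4ebp2 show groups that do not overlap, and 0 passed an adjusted p of 0.05 by edgeR.

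Start codon factors did not pass in the edgeR test, with 0 of 7 called and 1 at an unadjusted p under 0.05. Eif5, which triggers GTP hydrolysis by eIF2, measured 463, 490, 485 and 509 CPM in scrambled mice and 465, 464, 494 and 482 CPM with the knockdown, so the groups overlapped (log2 fold change -0.03, SE 0.05, adjusted p = 0.7002). Eif5b, the subunit-joining GTPase, changed by -0.04 (SE 0.05), and Eif1ax by -0.01 (SE 0.05). Eif1b, a copy of the start codon factor eIF1, was below every scrambled library in all 4 knockdown libraries without passing (adjusted p = 0.0837).

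The gene that rose was Eif5a2 (GRCm38, plus strand of chromosome 3, positions 28781276 to 28798846). Its product is the second form of eIF5A, a factor that carries the amino acid hypusine and helps ribosomes past difficult peptide bonds. It measured 25.3, 23.4, 19.7 and 33.05 CPM in scrambled mice, against 41.5, 38.8, 55.6 and 48.2 CPM with the knockdown. The groups did not overlap, and the mean knockdown level was 182% of the scrambled one (log2 fold change 0.86, SE 0.17, adjusted p = 0.0161). Its highest library was knockdown replicate 3, whose early granulocyte markers were in the scrambled range, and the call was kept with the early granulocyte covariate (log2 fold change 1.09, adjusted p = 0.0193). Whether early granulocyte cells had a part in the rise was not tested. The call was lost without scrambled replicate 2 (adjusted p = 0.0574).

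The main form, Eif5a, did not pass. It measured 1379, 1359, 1309 and 1447 CPM in scrambled mice and 1316, 1360, 1297 and 1209 CPM with the knockdown (log2 fold change -0.08, SE 0.06, adjusted p = 0.321). Per length of exon, Eif5a had the highest level of all tested Eif genes, at 578 CPM per kilobase in the scrambled libraries, against 5.05 for Eif5a2. Eif5a2 was thus 0.868 ± 0.155% of Eif5a per length in scrambled mice and 1.69 ± 0.319% with the knockdown (SD, n = 4 per group). Eif6, which keeps ribosomal subunits apart, measured 198, 182, 171 and 195 CPM against 180, 212, 194 and 160 CPM, with full overlap (log2 fold change 0.00, SE 0.09).

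Promoter letters are shown for a gene that fell, Eif3f, and for the gene that rose, Eif5a2, because both carry, in the bases before their start, the E-box CACGTG, the site bound by MYC and its partners. They were chosen after the matches were seen. Myc itself was at 96.3 to 251 CPM in the knockdown and 201 to 254 CPM in the scrambled libraries and did not pass (adjusted p = 0.350), except by edgeR with the early granulocyte covariate, where it was called lower. The sequences are the 160 bases before the RefSeq start on GRCm38.p6, plus strand, 5′ to 3′, at chr7:108934255-108934414 for Eif3f and chr3:28781117-28781276 for Eif5a2. Capitals mark the E-box CACGTG and the CCAAT box, CCAAT, both searched on both strands.
Eif3f: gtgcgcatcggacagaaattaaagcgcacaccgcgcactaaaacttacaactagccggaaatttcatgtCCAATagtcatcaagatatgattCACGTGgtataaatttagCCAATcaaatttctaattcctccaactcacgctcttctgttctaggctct
Eif5a2: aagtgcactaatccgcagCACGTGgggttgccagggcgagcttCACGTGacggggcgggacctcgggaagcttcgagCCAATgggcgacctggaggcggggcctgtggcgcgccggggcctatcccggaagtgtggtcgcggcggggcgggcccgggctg

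RefSeq promoter windows of 300 bases, 250 before and 50 after the start, were found for 43 of the 54 tested members, 56 windows in all. The E-box was in 21.4% of these windows and in 7.15% of all 32851 RefSeq windows. Eif5a gave 3 of the 12 matched windows of members. Its windows starting at 69921226 and 69921337 on chromosome 11 overlap and hold the same site, which was counted in each. The members' windows were also richer in G and C, with a median of 62.2% against 52.7%. The 10 members with an E-box window were Eif1b, Eif3a, Eif3f, Eif3k, Eif4a1, Eif4e, Eif4g1, Eif4h, Eif5a and Eif5a2, so they included genes that fell, the gene that rose and genes that did not pass. The CCAAT box was in 26.8% of the members' windows and 37.4% of all windows. The C/EBP-ATF element TGATGNAA was in 1.79 and 3.97%. A match describes the letters only.

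**Figure D4:**
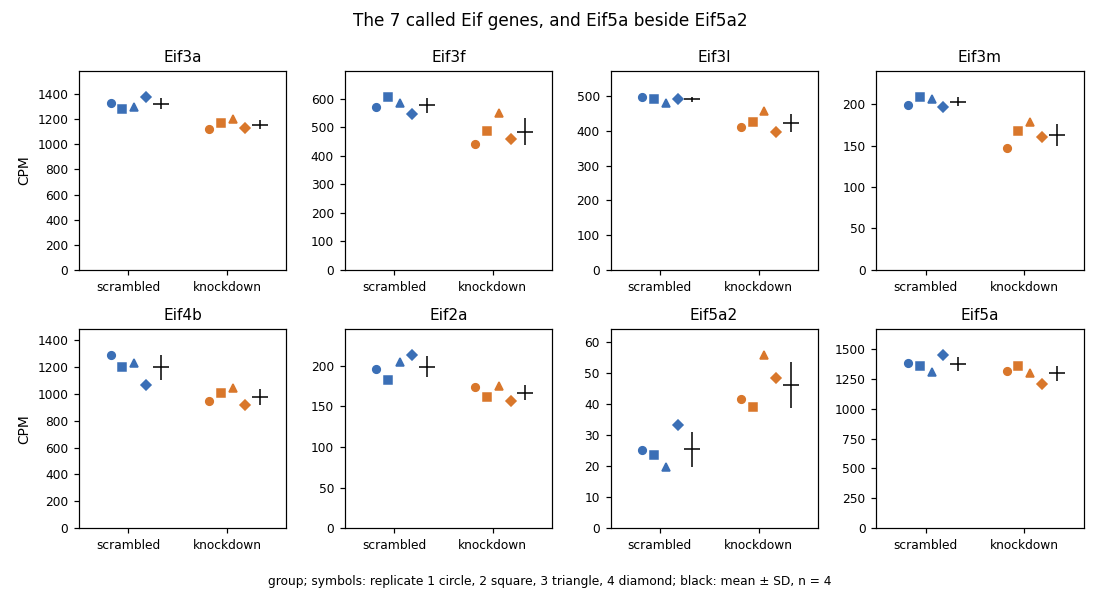
CPM of the 7 Eif genes that passed an adjusted p of 0.05, and of Eif5a beside its relative Eif5a2, in each library, with the mean ± SD of 4 libraries per group in black. Eif3f is the called gene in which the groups overlap, by 1 knockdown library.

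Groups that did not overlap numbered 12 among the 54 tested members (22.2%), beside 20.7% of all tested genes. Of these 10 were lower and 2 higher, 18.5 and 3.70%, beside 11.1 and 9.54% of all tested genes. Scrambled replicate 4 was the highest of the 8 libraries for 18 members, which was not counted over all tested genes.

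Of 77 tested genes that work beside the Eif genes, in 8 lists, 12 were called (15.6%), beside 15.3% of all tested genes. Termination and rescue factors (0 of 5), mitochondrial initiation factors (0 of 2) and exon junction partners of Eif4a3 (0 of 8) held no call by edgeR, with 1 higher, 2 lower and 1 lower at an unadjusted p under 0.05, and 1 higher, 2 lower and 1 lower by DESeq2. These lists were chosen with earlier results of these data known. Of 19 initiation partners without an Eif symbol 2 fell and 0 rose. They were Pabpc4, a poly(A)-binding protein, from 227 ± 29.0 to 156 ± 13.2 CPM (adjusted p = 0.0120), and Denr, a factor of ribosome recycling and reinitiation, from 132 ± 1.51 to 113 ± 7.11 CPM (SD, n = 4 per group, edgeR adjusted p = 0.0329). Neither was called by edgeR with the early granulocyte covariate. Denr was called in 3 of the 8 fits that left out 1 library (lost without scrambled replicate 1, 2 or 3 or knockdown replicate 1 or 4, adjusted p up to 0.0880), and Pabpc4 in all 8. Pdcd4, an inhibitor of eIF4A, measured 125 ± 33.5 and 80.1 ± 9.90 CPM and did not pass (adjusted p = 0.0663). Of 8 elongation factors 3 fell and 0 rose, beside 7.29 and 8.02% of all tested genes. Eef2k, the kinase that inhibits eEF2, changed by -0.43 in log2 units (SE 0.05, adjusted p = 0.00293) and kept its call in all 16 alternative fits. Eef1b2 and Eef1g, subunits of the exchange factor of eEF1A, fell by 0.25 and 0.23, and neither was called with the early granulocyte covariate. Both were called in 2 of the 8 fits that left out 1 library, those without scrambled replicate 4 or knockdown replicate 3, and reached an adjusted p of 0.118 and 0.123 in the others. Eef1g also missed the threshold by limma-voom (0.0504). None of 12 genes of the mTORC1 and MNK kinases passed by edgeR, with 2 lower and 1 higher at an unadjusted p under 0.05, and 2 lower and 1 higher by DESeq2.

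Of 10 genes for eIF2 phosphatases and for partners of the stress sensors 2 fell and 2 rose, beside 7.29 and 8.02% of all tested genes. Of 3 genes for the catalytic subunit 2 fell. Ppp1ca measured 125, 121, 112 and 108 CPM in scrambled mice and 77.9, 78.8, 83.2 and 77.6 CPM with the knockdown (log2 fold change -0.55, SE 0.06, adjusted p = 0.00282). Ppp1cb measured 280, 278, 277 and 242 CPM against 174, 178, 199 and 209 CPM (adjusted p = 0.00744). Neither pair of groups overlapped, and Ppp1ca kept its call in all 16 alternative fits. Ppp1cc, the third, was at 27.1 ± 3.94 and 27.4 ± 3.16 CPM and did not pass (SD, n = 4 per group, edgeR adjusted p = 0.942). These subunits serve many phosphatases besides that of eIF2. The subunit that directs them to eIF2 under stress, Ppp1r15a, was at 188 ± 36.0 and 261 ± 115 CPM and did not pass (adjusted p = 0.316). Impact, an inhibitor of GCN2, rose from 24.3 ± 3.34 to 32.1 ± 1.59 CPM (adjusted p = 0.0343), and the chaperone gene Hspa5 also rose (SD, n = 4 per group). Impact was called in 7 of the 16 alternative fits. With 1 library left out it was called only without scrambled replicate 4 or knockdown replicate 3, its adjusted p otherwise reaching 0.0949. Hspa5 was called in 9 of the 16, and was lost without any 1 of the scrambled replicates (up to 0.0727). Neither was called with the early granulocyte covariate.

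Phosphorylated eIF2 is known to favour translation of the transcription factor ATF4. In the ATF4 response list 3 of 13 rose and 0 fell, beside 8.02 and 7.29% of all tested genes. At an unadjusted p under 0.05 by edgeR, 7 were higher and 1 lower, and the median log2 fold change was 0.47. DESeq2 called 4 higher and 1 lower. Nupr1, a stress-response regulator, rose from 2.71 ± 0.626 to 9.85 ± 1.797 CPM, the transcription factor gene Atf5 from 17.7 ± 3.56 to 32.8 ± 8.31 CPM, and the cystine transporter gene Slc7a11 was the third (SD, n = 4 per group; adjusted p = 0.00293, 0.0287 and 0.00506). Nupr1 and Slc7a11 kept their calls in all 16 alternative fits and Atf5 in 10, being lost without scrambled replicate 1, 2 or 3 or knockdown replicate 2 or 4 (adjusted p up to 0.0868). Atf4 itself was at 501 ± 46.7 and 567 ± 113 CPM (adjusted p = 0.401), and Ddit3 did not pass (adjusted p = 0.431). Atf3, Chac1, Trib3 and Phgdh were fitted higher without passing, with log2 fold changes of 1.83, 1.76, 1.09 and 0.32. Their edgeR adjusted p-values were 0.105, 0.137, 0.121 and 0.0582. Sesn2 was fitted lower without passing (log2 fold change -0.43, edgeR adjusted p = 0.0551). The amino acid gene Asns, a known target, had a log2 fold change of -0.24 and did not pass (edgeR adjusted p = 0.222). Phosphorylation of eIF2 is not seen in RNA counts.

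**Figure D5:**
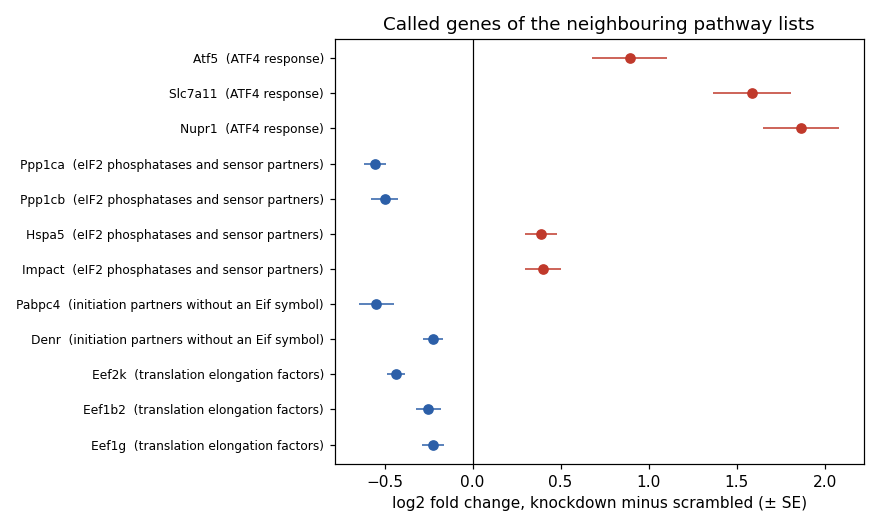
Log2 fold change (knockdown minus scrambled, ± SE) of the 12 called genes in the lists of neighbouring pathways, 4 against 4 libraries, with the list in brackets. The ATF4 response genes lie right of 0, and the elongation genes, Ppp1ca and Ppp1cb left of it.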

How the data were processed

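The authors deposited raw read counts for each gene, 1 column per library, without normalization. It also holds the authors' mean signal per gene, log2 fold changes with standard errors, a test score and p-values. Per the submitters' processing notes, CASAVA 1.8 and DESeq2 1.18.1 were used; per the series' design text, R 3.4.3 and biomaRt 2.34.2. The aligner, counting program, strand setting, annotation and genome build are not stated in the labels or headers used here, so reads of overlapping, antisense or near-identical genes may be misassigned. Per the labels' protocols, each library was made from 500 ng of RNA with stranded chemistry after ribosomal RNA removal; 2 removal kits are named, without saying which library had which.

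Each column's name gave its sample, and none stayed without one. The test was edgeR 4.0.16's (R 4.3.3), with filterByExpr, TMM scaling, a robust quasi-likelihood fit with group as the only term, two-sided, with Benjamini-Hochberg adjustment over 13462 genes and a threshold of 0.05. The standard error is the size of the log2 fold change over the square root of F. CPM are scaled by library size and TMM factor. Gene positions and exon lengths come from GENCODE M21 (GRCm38) by Ensembl ID. DESeq2 1.42.0 and limma 3.58.1 (voom) were alternatives. The scripts were tested on simulated data. No 2 libraries were copies: within a group, chi-square per degree of freedom was 11.7 or more.

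Named genes are all called members, 16 fixed by role and the 3 uncalled members with the smallest p; others are given by role. The members and lists were chosen with earlier results of these data known. Genes of the pathway lists are named when called. Any further gene or member was named after its values were seen.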

Additional observations from a re-analysis of the deposited data

Results flagged for a closer look

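In 5 of 108 groups of 4 libraries, each group being 1 tested Eif gene in the scrambled or the knockdown mice, 1 library stood far from the others by Dixon's test. Chance flags about 1 group in 20. Scrambled replicate 4 was the library in 3 of them. It measured 2092 CPM for Eif4g1, where the next was 1823, 226 CPM for Eif4g3, where the next was 191, and 252 CPM for Eif4a1, where the next was 200. All 3 encode parts of the cap complex. In the knockdown mice, replicate 1 was high for Eif4g3, at 211 CPM against 201 in the next library, and replicate 2 was low for Eif1b, at 53.97 CPM against 57.7.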

How the results depend on the processing

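The genes called over the whole table numbered 2062, and 3588 by DESeq2, 618 with the early granulocyte covariate (418 higher and 200 lower, 67.6% higher against 52.4%), 3440 without both scrambled replicate 4 and knockdown replicate 3, and 526 to 3425 with 1 library left out. Against 6 Eif members called lower, there were 13 by DESeq2, 3 with no low count filter, 0 with the covariate, 15 without both of those libraries and 0 to 12 with 1 library left out. It was 0 without scrambled replicate 2 or 3, 1 without scrambled replicate 1 or knockdown replicate 1 or 2, 3 without knockdown replicate 4 and 12 without knockdown replicate 3. The share of all tested genes called lower, 7.29%, moved as well. It was 10% by DESeq2, 3.07% with no low count filter and 1.49% with the covariate. It was 11.5% without both of those libraries, and 1.81 to 10.6% with 1 library left out. Against 1 of the Eif members called higher, there were 2 by DESeq2, 2 with at least 1 CPM in 4 libraries, and 0 to 2 with 1 library left out. The median log2 fold change of tested Eif members, -0.096, was -0.0226 with the covariate and -0.155 to -0.0590 with 1 library left out. The cause was not tested. The authors' deposited table called 12 of the tested members lower and 2 higher. The share of all genes called there was not counted, so these counts have no background share beside them.

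The labels do not say that replicate numbers pair the mice. With group means removed, same-numbered libraries correlated at -0.42, 0.02, -0.56 and -0.22, and none correlated best with its own number. These correlations cannot show whether same-numbered mice were handled together. With the replicate block, the genes called over the whole table numbered 400, with 0 Eif genes lower and 0 higher by edgeR, where 13 and 2 had an unadjusted p under 0.05.

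Some changes near 0 turned sign. None of these genes was called with all libraries, and Eif2ak1 was called lower without both scrambled replicate 4 and knockdown replicate 3 (-0.196, adjusted p = 0.0471 by edgeR). Eif6 was 0.0039 with DESeq2 size factors, 0.017 with the filter at 1 CPM, 0.135 with the covariate, and -0.0658 to 0.0651 with 1 library left out. Eif4a1 was -0.0075 with no filter and -0.0368 to 0.0975 with 1 library left out. With the covariate Eif2s1 was 0.0059, Eif2ak1 0.0647, Eif2ak3 -0.0038 and Eif2b5 0.0599. With 1 library left out Eif2ak3 was -0.0272 to 0.150 and Eif2b5 -0.0640 to 0.0078.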
